A study of Saccharomyces cerevisiae with 12 samples.

Results

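Cytosolic large-subunit ribosomal proteins are the proteins that, with 25S, 5.8S and 5S rRNA, build the 60S subunit of the yeast ribosome. Their genes were taken by symbol, as RPL followed by a number or RPP0, RPP1 and RPP2, each with or without a final A or B. This matched 82 of the 6216 features in the table of counts. The RPP1 row without a letter (YHR062C) is a protein of RNase P and RNase MRP, not of the ribosome, and was left out. The other 81 all carried a ribosomal description. They form 35 A and B pairs, 70 genes in all, and 11 single-copy genes, and they encode 46 distinct ribosomal proteins on 14 chromosomes.

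Saccharomyces cerevisiae BY4741, a haploid laboratory strain, was grown exponentially in rich medium (YPD) and exposed to 500 nM concanamycin A, a macrolide that blocks the proton-pumping V-ATPase of the vacuole. The groups were cells at 1 h, 3 h and 6 h of exposure and cells at 0 h, with 3 RNA sequencing libraries at each time. All groups share the strain and the medium. The question was how transcript levels changed over the exposure. Untreated cultures of the same ages were not analysed here, and the effects of culture time and of the compound cannot be told apart. Whether the 3 libraries of each time are separate cultures is not stated in the labels. The p-values therefore reflect no more than the differences between these libraries, which could be technical.

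Most yeast ribosomal protein genes are present as a pair left by an ancient duplication of the genome, and both copies usually encode nearly the same protein. They are among the most transcribed genes of a growing cell. Their promoters are bound by Rap1, Fhl1 and Ifh1, and the TORC1 and protein kinase A pathways, which respond to nutrients and stress, set their transcription. They are known to be repressed as a group in many kinds of stress. A ribosome holds 1 copy of each of these proteins, apart from those of the stalk.

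Library totals ran from 8508894 to 11008709 counts. The scaling factors of edgeR's TMM method ran from 0.843 to 0.881 at 0 h and from 0.995 to 1.11 at the later times. Of the genes deleted in this strain, MET17 was at 0 in all 12 libraries and LEU2 and URA3 had at most 3 counts each. HIS3, of which the strain keeps a part, had 363 to 860 counts. Large-subunit genes took 8.74% ± 0.395 of all counts at 0 h, 5.05% ± 0.238 at 1 h, 4.76% ± 0.0239 at 3 h and 4.29% ± 0.245 at 6 h (SD, n = 3 each). All 81 passed the filter on low counts, with 192 to 66799 counts per gene and library. In the 0 h library of replicate 3 the members had a median 0.18 above the other 2 libraries of that time on the log2 scale, the largest such offset of the 12. In RNA from whole cultures, less RNA in every cell and fewer cells with the transcript cannot be told apart.

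Nearly every large-subunit gene fell within 1 h of exposure and was still lower than at 0 h after 6 h. At 1 h against 0 h, 79 of 81 fell, none rose and 2, RPL15B and RPL41A, passed no test, with a median log2 fold change of -0.96 (edgeR quasi-likelihood test, Benjamini-Hochberg adjusted p under 0.05). Over all 5615 features tested, 23.4% fell and 24.5% rose in that comparison, and the median was near 0. At 3 h against 0 h, 80 members fell and 1 rose, with a median of -1.15, against 24.5% of all features that fell and 26.3% that rose. At 6 h against 0 h, 80 fell and 1 rose, with a median of -1.29, against 28.9% of all features that fell and 33% that rose. A fall of at least 2-fold was reached by 36 members at 1 h, 62 at 3 h and 75 at 6 h, against 3.24%, 4.47% and 5.2% of all features. All 81 differed among the 4 times by an F test, as did 78.5% of all features.

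For 80 of 81 members all 3 libraries lay below all 3 libraries of 0 h at 1 h, and the same number did at 3 h and at 6 h. Of all features, 26.6% lay wholly below 0 h at 1 h, 27.1% at 3 h and 29.2% at 6 h. The member outside this count was RPL15B at each time. At 1 h the members' changes ran from -2.69 to -0.09, with an SD over members of 0.41 on the log2 scale against a median SE of 0.07 per gene. Of the 81, 66 lay between -1.5 and -0.5. The lowest mean of the 4 times was reached at 6 h by 61 members, at 1 h by 14 and at 3 h by 6.

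**Figure D1:**
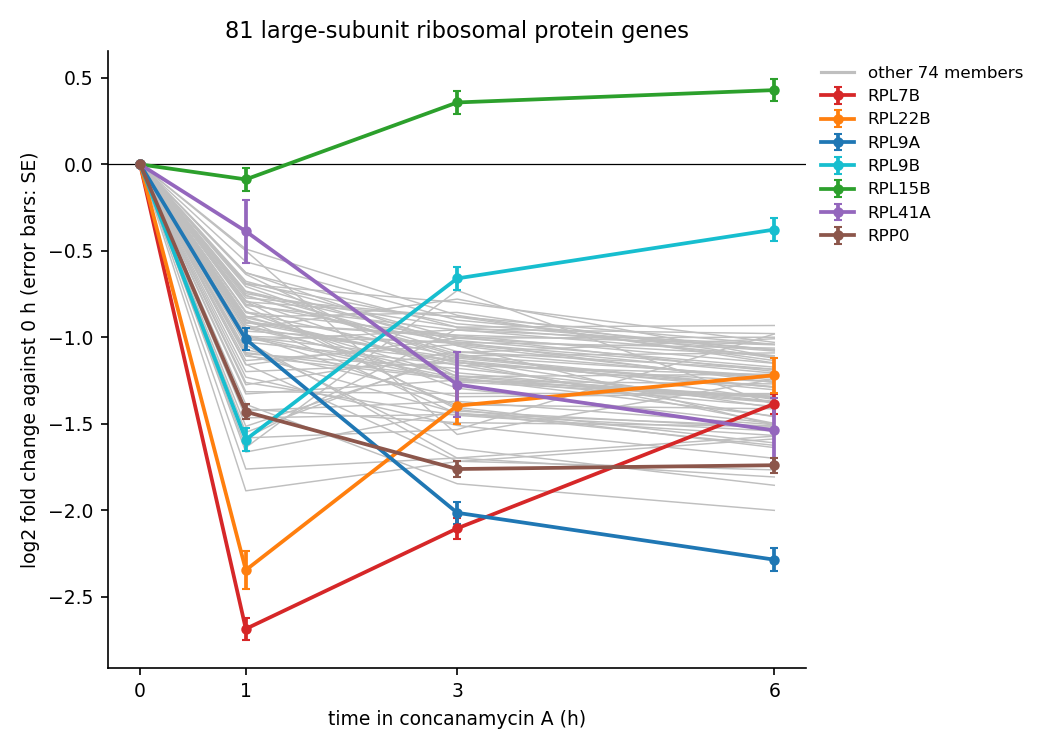
Log2 fold change against 0 h (y axis) over time in concanamycin A in hours (x axis) for the 81 large-subunit genes, 74 in grey and 7 in colour with their SE as bars. Most lines fall by 1 h and stay well below 0 at 6 h, RPL15B ends at 0.43, RPL9B at -0.38 and RPL9A at -2.29, and RPL7B and RPL22B fall furthest at 1 h and climb afterwards.

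Median changes were close between kinds of gene. The 53 genes with introns had median log2 fold changes of -0.95, -1.13 and -1.29 at 1, 3 and 6 h. The 28 genes without introns had -1.0, -1.26 and -1.33. The 35 A copies had medians of -0.94, -1.12 and -1.29 at 1, 3 and 6 h, and the 35 B copies -1.02, -1.16 and -1.33. The 11 single-copy genes had -0.79, -1.23 and -1.33. For the 56 small-subunit genes the medians were -1.0, -1.26 and -1.40, with 54 called lower at each time. Genes of the mitochondrial large subunit, a separate ribosome that makes a few membrane proteins, had medians of -0.19, -0.15 and -0.33, with 14, 12 and 28 of 34 called lower.

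Among single-copy genes, RPL3, whose protein reaches the peptidyl transferase centre, had 6885, 6989 and 6959 CPM at 0 h, 2748, 2732 and 2901 CPM at 1 h, 2826, 2808 and 2690 CPM at 3 h and 2804, 2822 and 2693 CPM at 6 h. The 3 later times overlapped each other and all lay far below 0 h. The log2 fold changes were -1.31 ± 0.04, -1.32 ± 0.04 and -1.32 ± 0.04 at 1, 3 and 6 h (SE, edgeR adjusted p = 4.15e-11, 4.42e-11 and 2.47e-11). RPL5 encodes the protein that carries 5S rRNA into the subunit together with Rpl11. It had 4137, 4186 and 4568 CPM at 0 h, 1271, 1364 and 1435 CPM at 1 h, 1605, 1594 and 1598 CPM at 3 h and 1380, 1583 and 1517 CPM at 6 h. Its 1 h and 6 h libraries overlapped, and all of 3 h lay above 1 h. RPL5 had its lowest mean at 1 h, where the fold change was -1.66 ± 0.06, and was higher at 3 h than at 1 h by 0.24 ± 0.06 (edgeR adjusted p = 0.00856).

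RPL10, whose protein is among the last to join the subunit in the cytoplasm, was the least lowered single-copy gene at 1 h. It had 3872, 4044 and 4491 CPM at 0 h, 2813, 2975 and 3050 CPM at 1 h, 2290, 2307 and 2180 CPM at 3 h and 1893, 1893 and 1812 CPM at 6 h. Its libraries stepped down at each time with no overlap between consecutive times. The log2 fold changes were -0.49 ± 0.06, -0.87 ± 0.06 and -1.15 ± 0.06, and both later steps passed the test as well (edgeR adjusted p = 0.000166 from 1 to 3 h and 0.00165 from 3 to 6 h). RPL30, whose protein binds its own transcript and blocks its splicing, had log2 fold changes of -1.47, -1.45 and -1.54 at 1, 3 and 6 h. RPL25, whose protein sits at the exit of the peptide tunnel, had -0.89, -1.16 and -1.22. RPL28, in which mutations give resistance to cycloheximide, had -0.79, -1.21 and -1.37, and RPL38 had -0.79, -1.42 and -1.64. RPL39, whose small protein lines the peptide tunnel, had -0.75, -0.94 and -0.93, the smallest fall of the single-copy genes at 6 h. All of these passed the test at each time.

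All 5 genes of the stalk, the part of the subunit that recruits elongation factors, fell. RPP0, the single-copy base of the stalk, had 4483, 4610 and 4596 CPM at 0 h, 1690, 1660 and 1731 CPM at 1 h, 1362, 1392 and 1287 CPM at 3 h and 1351, 1415 and 1335 CPM at 6 h. All libraries of the later times lay far below 0 h, and 3 h and 6 h overlapped. Its log2 fold changes of -1.43 ± 0.04, -1.76 ± 0.04 and -1.74 ± 0.04 were among the 8 lowest at 3 h and 6 h (edgeR adjusted p = 3.88e-11, 1.31e-11 and 4.37e-12). The acidic proteins P1 and P2, which bind to P0 as dimers, are encoded by RPP1A, RPP1B, RPP2A and RPP2B. RPP1A had log2 fold changes of -0.81, -1.03 and -1.06 at 1, 3 and 6 h. RPP1B had -0.85, -1.29 and -1.5, RPP2A had -0.69, -1.05 and -1.25 and RPP2B had -0.82, -0.96 and -1.04. Each of these 12 falls passed the test, and the difference between RPP0 and the other 4 genes was not tested.

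RPP1A and RPP1B differ more in protein sequence (56.1% identity) than any other member pair. At 6 h the ratio of RPP1A to RPP1B was higher than at 0 h by 0.44 ± 0.08 on the log2 scale (edgeR adjusted p = 0.000389), and the share of RPP1A in the pair was 71.9, 67.5 and 68.8% at 6 h, against 61.5, 61.8 and 64.5% at 0 h. The shares did not overlap. RPP2A moved the other way relative to RPP2B, by -0.21 ± 0.04 at 6 h (adjusted p = 0.00141).

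The ratio of A to B copy was tested for each pair as a copy-by-time term, with both copies counted in the same library. Of 35 member pairs, 26 had a changed ratio at 1 h against 0 h, 20 at 3 h and 24 at 6 h (edgeR quasi-likelihood test, adjusted p under 0.05). The same test over 541 paralogue pairs of the proteome called 59%, 57.1% and 64.5%, and of the member pairs it called 74.3%, 57.1% and 68.6%. The median absolute change of the member pairs was 0.20, 0.22 and 0.23 on the log2 scale at 1, 3 and 6 h, against 0.37, 0.36 and 0.48 for the 506 other pairs. A called change of at least 2-fold was found for 4 member pairs at 1 h, 3 at 3 h and 2 at 6 h, against 14%, 13.5% and 22% of all paralogue pairs. These were RPL1, RPL7, RPL15 and RPL22 at 1 h, RPL7, RPL9 and RPL15 at 3 h, and RPL9 and RPL15 at 6 h. RPL6 and RPL14 were called at none of the 3 times, and 11 pairs at all 3.

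**Figure D2:**
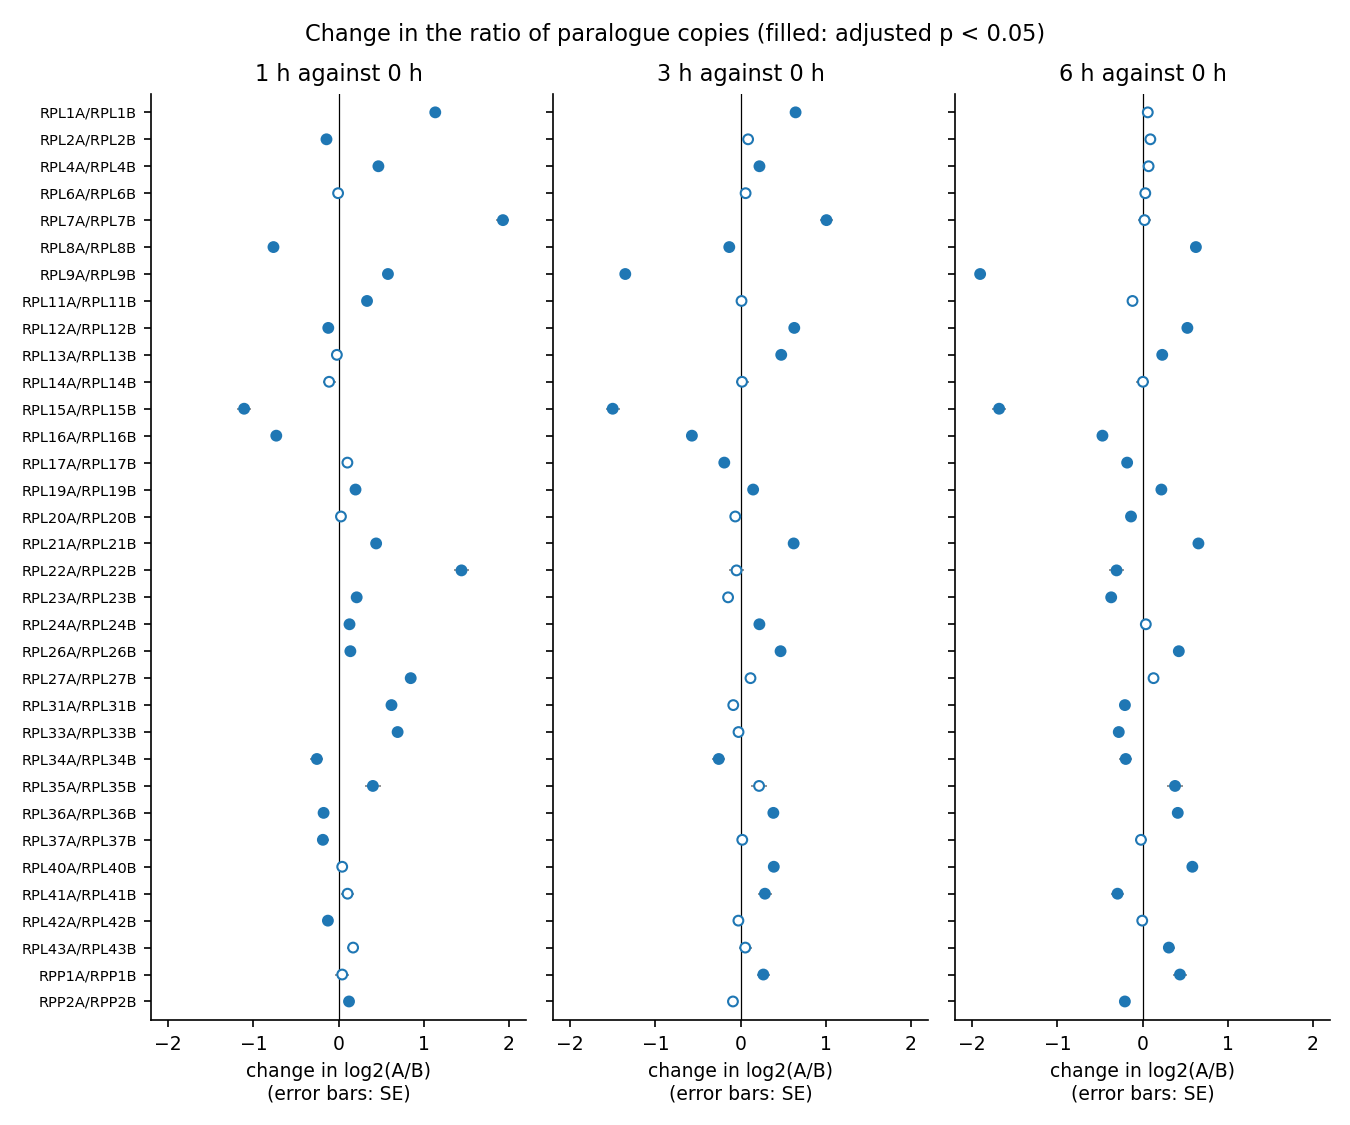
Change in the log2 ratio of A to B copy (x axis, bars are SE, mostly narrower than the points) for 34 of the 35 pairs (rows), at 1, 3 and 6 h against 0 h from left to right. Filled points passed the test. RPL7 stands at 1.93 at 1 h and at 0.02 at 6 h, while RPL9 stands at 0.58 at 1 h and at -1.91 at 6 h.

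At 1 h the less abundant copy of a pair was often the relatively lower one. With the lesser copy defined by level per coding length at 0 h, it was relatively lower in 19 of the 26 pairs called at 1 h and relatively higher in 7. The 19 include RPL4, RPL7, RPL11 and RPL35, and the 7 include RPL1. Under 50% of the 50-base windows of these pairs are found at 1 place in the genome, so their split is uncertain. The same count was not made for the other paralogue pairs of the proteome. Defined over all 12 libraries, which include those of 1 h, it was relatively lower in 20 of the 26. The definitions named the same copy in 34 of the 35 pairs. They differed for RPL1, whose A share was 46.5% at 0 h and 65.6% at 1 h. By the 0 h definition the lesser copy was relatively lower in 10 of 20 called pairs at 3 h and 10 of 24 at 6 h. At 3 h against 1 h it was relatively higher in 17 of 24 called pairs, where 44.5% of all paralogue pairs were called. The definition at 0 h shares its libraries with the comparisons with 0 h, and that over all 12 libraries shares libraries with every comparison. The second count is therefore no separate support for the first. By group means the greater copy at 0 h was also the greater copy at 6 h in all 35 pairs. At times between, the order of means differed for RPL12, with an A share of 40.5% at 0 h and 51.3% at 3 h. It also differed for RPL1, at 65.6% at 1 h and 57.6% at 3 h. Single libraries of RPL9 and RPL12 at 6 h had the other order, with A shares of 49.4, 53.3 and 51.8% for RPL9 and 48.8, 50.5 and 49.2% for RPL12.

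RPL7A and RPL7B, each with 2 introns, encode the protein uL30 in versions that differ at 5 residues. They are shown first because RPL7B fell furthest of all members at 1 h. The 200 bases that begin 340 bases before each start codon, from the RefSeq R64 genome (RPL7A chrVII:366137-366336, minus strand; RPL7B chrXVI:172812-173011, plus strand), are given 5′ to 3′, with a match to the Rap1 motif ACCCNNACA in capitals.
RPL7A: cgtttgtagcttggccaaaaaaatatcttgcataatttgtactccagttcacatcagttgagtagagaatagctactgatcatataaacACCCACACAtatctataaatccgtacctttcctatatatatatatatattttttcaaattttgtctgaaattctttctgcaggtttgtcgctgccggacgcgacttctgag
RPL7B: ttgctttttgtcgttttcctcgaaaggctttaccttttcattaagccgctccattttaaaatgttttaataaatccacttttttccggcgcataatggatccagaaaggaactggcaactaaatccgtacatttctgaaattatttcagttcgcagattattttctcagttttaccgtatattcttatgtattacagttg
RPL7A holds 1 match and RPL7B none in this window.

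RPL7B (YPL198W) had 178, 178 and 179.9 CPM at 0 h, 25.3, 28.0 and 30.03 CPM at 1 h, 41.8, 43.0 and 40.1 CPM at 3 h and 69.9, 68.6 and 67.1 CPM at 6 h. All libraries of later times lay below 0 h, and the 3 later times were apart from each other and higher at each step. The log2 fold changes were -2.69 ± 0.06, -2.10 ± 0.06 and -1.38 ± 0.06 (SE, edgeR adjusted p = 6.16e-12, 2.95e-11 and 3.49e-10). RPL7A (YGL076C) had 1113, 1115 and 1224 CPM at 0 h, 657, 695 and 689 CPM at 1 h, 528, 542 and 544 CPM at 3 h and 409, 474 and 463 CPM at 6 h. It was lower at each step, with fold changes of -0.76, -1.10 and -1.36, and no libraries of consecutive times overlapped. At 6 h both copies had fallen by nearly the same factor, with RPL7A lower and RPL7B higher at each step after 1 h. Under 50% of the 50-base windows of the pair are found at 1 place in the genome, so the split between these copies is uncertain. The share of RPL7A in the pair was 86.5% ± 0.570 at 0 h, 96.1% ± 0.237 at 1 h, 92.8% ± 0.271 at 3 h and 86.7% ± 1.11 at 6 h (SD, n = 3 each). The ratio changed by 1.93 ± 0.08 at 1 h and 1.01 ± 0.07 at 3 h (adjusted p = 1.22e-09 and 3.11e-07), and by 0.02 ± 0.07 at 6 h (adjusted p = 0.803). The snoRNA genes SNR39 and SNR59 lie in the introns of RPL7A and RPL7B.

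RPL22B was also lowest at 1 h. Its protein and that of RPL22A share 84.4% of residues, and Rpl22 is known to bind the RPL22B intron and hold back its splicing. RPL22B (YFL034C-A, chrVI:64243-64932) had 99.2, 106 and 129 CPM at 0 h, 20.1, 22.8 and 22.7 CPM at 1 h, 37.3, 43.7 and 45.7 CPM at 3 h and 46.8, 50.1 and 46.4 CPM at 6 h. Libraries of 1 h lay below those of 3 h and 6 h, and all later libraries lay below those of 0 h. Its log2 fold changes were -2.35 ± 0.11, -1.40 ± 0.10 and -1.22 ± 0.10 (SE, edgeR adjusted p = 2.15e-09, 1.42e-07 and 2.66e-07). RPL22A (YLR061W) had 1030, 1017 and 1131 CPM at 0 h, 546, 579 and 583 CPM at 1 h, 378, 388 and 405 CPM at 3 h and 323, 397 and 393 CPM at 6 h. It fell at 1 h and 3 h in turn, with changes of -0.90, -1.44 and -1.51, and 3 h and 6 h overlapped. The ratio of RPL22A to RPL22B changed by 1.45 ± 0.09 at 1 h (adjusted p = 8.89e-08), by -0.05 ± 0.09 at 3 h (adjusted p = 0.669) and by -0.31 ± 0.09 at 6 h (adjusted p = 0.00902).

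RPL9A and RPL9B encode the protein uL6, which lies near the base of the stalk, in versions that differ at 4 residues. They are shown because no other pair's ratio changed more at 6 h. The same window before each start codon (RPL9A chrVII:228470-228669, minus strand; RPL9B chrXIV:499341-499540, plus strand) has the Rap1 match in capitals, here on the other strand.
RPL9A: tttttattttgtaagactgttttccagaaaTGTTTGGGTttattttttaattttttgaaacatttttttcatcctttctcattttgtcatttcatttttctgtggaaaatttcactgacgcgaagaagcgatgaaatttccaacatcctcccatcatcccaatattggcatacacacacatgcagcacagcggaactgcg
RPL9B: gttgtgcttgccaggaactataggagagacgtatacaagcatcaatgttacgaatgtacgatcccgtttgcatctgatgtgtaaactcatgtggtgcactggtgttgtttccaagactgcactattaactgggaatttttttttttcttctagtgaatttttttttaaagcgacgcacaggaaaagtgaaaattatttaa
RPL9A holds 1 match and RPL9B none in this window.

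RPL9A (YGL147C) had 1510, 1560 and 1756 CPM at 0 h, 799, 775 and 821 CPM at 1 h, 407, 411 and 377 CPM at 3 h and 323, 351 and 316 CPM at 6 h. Its libraries stepped down at each time with no overlap. The log2 fold changes were -1.01 ± 0.06, -2.01 ± 0.06 and -2.29 ± 0.07 (SE, edgeR adjusted p = 2.83e-08, 7.33e-11 and 1.81e-11), and the last was the lowest of all members. RPL9B (YNL067W) had 378, 393 and 439 CPM at 0 h, 130.3, 135 and 136 CPM at 1 h, 251, 270.1 and 245 CPM at 3 h and 331, 307 and 294 CPM at 6 h. It fell at 1 h and was higher at each later step, and 6 h still lay wholly below 0 h. Its changes were -1.59 ± 0.07, -0.66 ± 0.07 and -0.38 ± 0.07 (adjusted p = 9.55e-10, 2.87e-06 and 0.000233). With library totals in place of TMM scaling, the change of RPL9B at 6 h was -0.08 and passed no test (adjusted p = 0.234).

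RPL9A made up 79.96% ± 0.0571 of the pair at 0 h, 85.7% ± 0.405 at 1 h, 61.0% ± 0.822 at 3 h and 51.5% ± 1.98 at 6 h (SD, n = 3 each). The ratio of A to B changed by 0.58 ± 0.06, -1.35 ± 0.06 and -1.91 ± 0.06 on the log2 scale (edgeR adjusted p = 3.79e-06, 2.35e-09 and 4.46e-11). The direction at 1 h was opposite to that at 3 h and 6 h. With 86.0% of their 50-base windows found at 1 place in the genome, reads of the pair can mostly be told apart.

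RPL15A and RPL15B encode the protein eL15, which contacts 25S rRNA along much of its length, and differ at 2 of 204 residues. They are shown because RPL15B was the only member to rise. In the window before each start codon (RPL15A chrXII:202731-202930, minus strand; RPL15B chrXIII:510489-510688, minus strand) neither holds the Rap1 motif, and the capitals mark a match to the Abf1 motif, TCA and ACG with any 6 bases between, on the other strand.
RPL15A: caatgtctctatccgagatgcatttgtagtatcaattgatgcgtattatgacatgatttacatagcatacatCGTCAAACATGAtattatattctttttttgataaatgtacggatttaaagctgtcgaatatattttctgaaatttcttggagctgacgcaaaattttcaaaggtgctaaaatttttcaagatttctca
RPL15B: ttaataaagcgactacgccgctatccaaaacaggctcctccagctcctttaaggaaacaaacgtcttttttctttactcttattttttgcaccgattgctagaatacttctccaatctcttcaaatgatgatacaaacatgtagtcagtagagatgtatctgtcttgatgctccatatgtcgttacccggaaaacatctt
RPL15A holds 1 Abf1 match and RPL15B none in this window.

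RPL15B (YMR121C, chrXIII:509734-510348) had 50.3, 57.3 and 50.3 CPM at 0 h, 48.8, 50.6 and 49.1 CPM at 1 h, 68.0, 63.7 and 70.4 CPM at 3 h and 71.8, 70.2 and 70.5 CPM at 6 h. The libraries of 1 h and 0 h overlapped, and all those of 3 h and 6 h lay above both. At 1 h the log2 fold change was -0.09 ± 0.07 and passed no test (edgeR adjusted p = 0.297). RPL15B rose by 0.36 ± 0.07 at 3 h and 0.43 ± 0.07 at 6 h (adjusted p = 0.000564 and 7.66e-05). RPL15A (YLR029C) had 2859, 2888 and 3251 CPM at 0 h, 1303, 1294 and 1324 CPM at 1 h, 1382, 1356 and 1326 CPM at 3 h and 1206, 1308 and 1250 CPM at 6 h. The later times lay between 1206 and 1382 CPM, wholly below 0 h, with changes of -1.2, -1.15 and -1.26 at 1, 3 and 6 h. RPL15A still made up 94.7% ± 0.261 of the pair at 6 h, against 98.3% ± 0.212 at 0 h (SD, n = 3 each). The ratio of A to B changed by -1.11 ± 0.08, -1.5 ± 0.08 and -1.69 ± 0.08 (adjusted p = 3.29e-07, 2.13e-08 and 3.27e-09). Summed over both copies, the RPL15 transcripts fell by 1.17 at 1 h on the log2 scale.

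**Figure D3:**
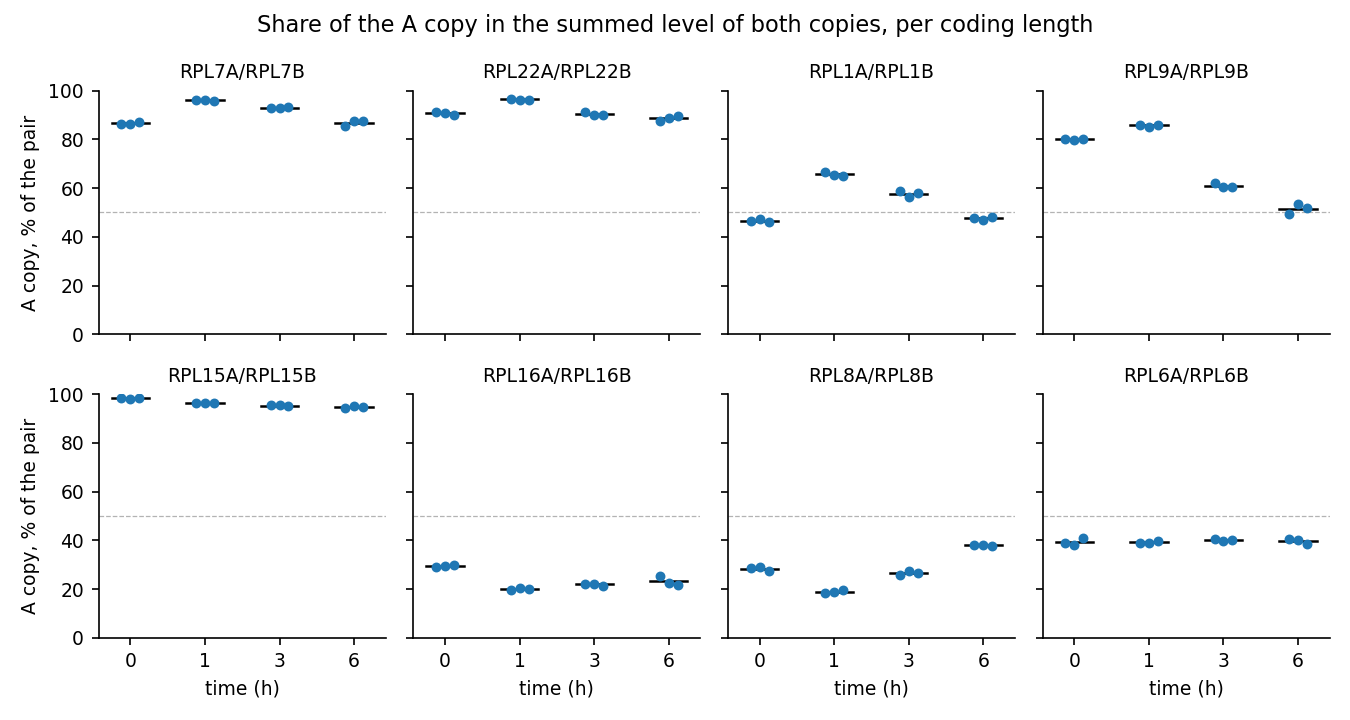
Share of the A copy in the summed level per coding length of both copies, in percent (y axis), at 0, 1, 3 and 6 h (x axis, not to scale) for 8 pairs. Points are libraries and bars are means. RPL9A is near the dashed line at 50% by 6 h, RPL1A is above that line at 1 h and 3 h and below it at 0 h and 6 h, RPL8A is lowest at 1 h and highest at 6 h, and RPL6A stays between 39.1% and 40.2% on average.

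RPL18B encodes the large-subunit protein eL18. It had 242, 241 and 258 CPM at 0 h, 71.1, 80.8 and 86.3 CPM at 1 h, 144, 150.1 and 153 CPM at 3 h and 90.4, 96.7 and 95.7 CPM at 6 h. It was lowest at 1 h, higher at 3 h with no overlap, and was lower again at 6 h. Against 1 h its level at 3 h was higher by 0.91 ± 0.07, and against 3 h its level at 6 h was lower, at -0.66 ± 0.07 (SE, edgeR adjusted p = 4.61e-07 and 1.08e-05).

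RPL8A and RPL8B encode eL8, which is needed to make the large subunit's rRNA. RPL8A had 888, 913 and 965 CPM at 0 h, 284, 307 and 333 CPM at 1 h, 305, 329 and 322 CPM at 3 h and 427, 491 and 483 CPM at 6 h. Its libraries of 1 h and 3 h overlapped, and those of 6 h lay above them and below 0 h. RPL8B, the more abundant copy, had 2190, 2247 and 2562 CPM at 0 h, 1257, 1325 and 1377 CPM at 1 h, 879.7, 872 and 891 CPM at 3 h and 697, 794 and 801 CPM at 6 h. It stepped down at each time, with changes of -0.82, -1.41 and -1.61, while RPL8A had -1.58, -1.53 and -0.98. RPL8A made up 28.4% ± 0.871 of the pair at 0 h, 18.9% ± 0.520 at 1 h, 26.6% ± 0.825 at 3 h and 38.0% ± 0.312 at 6 h (SD, n = 3 each). The ratio changed by -0.76 ± 0.05 at 1 h and 0.63 ± 0.05 at 6 h (edgeR adjusted p = 7.42e-08 and 2.03e-07). At 3 h it changed by -0.13 (adjusted p = 0.0319), a call lost without replicate 1 or 2 of 0 h or replicate 1 or 3 of 3 h (adjusted p = 0.0979, 0.108, 0.125 and 0.0714).

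The B copies RPL27B, RPL31B and RPL33B fell at 1 h and were higher at 3 h. RPL27B had log2 fold changes of -1.51, -1.11 and -1.22 at 1, 3 and 6 h, RPL31B of -1.58, -0.95 and -0.98 and RPL33B of -1.55, -1.09 and -1.01. Relative to these, the A copies RPL27A, RPL31A and RPL33A were higher at 1 h by 0.85 ± 0.06, 0.62 ± 0.06 and 0.69 ± 0.06 (edgeR adjusted p = 3.55e-07, 5.14e-06 and 1.02e-06). At 3 h the ratios of these pairs had changed by 0.12, -0.09 and -0.02 against 0 h and passed no test. At 6 h the ratio of RPL31A to RPL31B was lower than at 0 h, at -0.21, and that of RPL33A to RPL33B at -0.28 (adjusted p = 0.0124 and 0.00116), while RPL27 had 0.13 and passed no test (adjusted p = 0.0915). The call of RPL31 at 6 h was lost without replicate 2 of 0 h (edgeR adjusted p = 0.0574). RPL16A, whose protein uL13 differs from that of RPL16B at 20 residues, was relatively lower at all 3 times, at -0.73 ± 0.06, -0.57 ± 0.06 and -0.47 ± 0.06.

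In the pairs RPL12, RPL21, RPL26 and RPL40 the A copy was relatively higher at 3 h and 6 h. The same direction was called at both times for RPL13, RPL19, RPL36 and RPP1, with 0.39 and 0.41 for RPL36. RPL21A was relatively higher than RPL21B by 0.44, 0.62 and 0.66 at 1, 3 and 6 h. RPL21B had 934, 989.5 and 1102 CPM at 0 h, 361, 398 and 397 CPM at 1 h, 282, 274 and 285 CPM at 3 h and 229, 272 and 255 CPM at 6 h, and at 6 h its change of -2.0 ± 0.08 was the lowest of all members but RPL9A (edgeR adjusted p = 1.24e-10). RPL12, whose protein joins the stalk base to the subunit, had a ratio change of 0.63 at 3 h and 0.53 at 6 h. RPL40, made as a fusion to ubiquitin, had 0.39 and 0.59. RPL26 had 0.47 and 0.43. Each of these changes at 3 h and 6 h passed the test. In the pair RPL6, which passed no test, RPL6A made up 39.8% ± 1.27 of the level at 6 h, against 39.2% ± 1.44 at 0 h.

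Near-identical copies limit 6 pairs, in which under 50% of the 50-base windows of the coding sequence are found at 1 place in the genome. These are RPL1 (19.0% of windows), RPL35 (19.4%), RPL4 (27.3%), RPL41 (31.0%), RPL11 (39.1%) and RPL7 (43.1%). The set depends on the window length. With 75-base windows RPL7 had 52.3% and RPL41 100%, and RPL1, RPL4, RPL11 and RPL35 stayed under 50%. With 36-base windows RPL42 was also under 50%, at 39.9%. The sources used here do not say how reads with several places were counted, so the split between these copies is uncertain, and their levels may be too low if such reads were dropped. RPL41 shows the limit. Its whole coding sequence (RPL41A chrIV:130407-130484, minus strand; RPL41B chrIV:221724-221801, minus strand, R64) is printed with the only base that differs in capitals.
RPL41A: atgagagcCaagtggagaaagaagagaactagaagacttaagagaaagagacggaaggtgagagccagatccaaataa
RPL41B: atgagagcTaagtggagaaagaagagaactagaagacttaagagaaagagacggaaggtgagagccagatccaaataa
Only a read over that base, or one reaching outside the coding sequence, can tell the copies apart.

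RPL41 encodes a peptide of 25 residues that bridges both subunits. RPL41A had 487, 500.4 and 682 CPM at 0 h, 327, 469.9 and 479.8 CPM at 1 h, 249, 239 and 203 CPM at 3 h and 226, 187 and 162 CPM at 6 h. The libraries of 1 h lay just below those of 0 h, and those of 3 h and 6 h lay far below. At 1 h its log2 fold change of -0.39 ± 0.18 passed no test by edgeR (adjusted p = 0.108), while DESeq2 called it (adjusted p = 0.0399). At 3 h and 6 h RPL41A fell by 1.27 and 1.54 (edgeR adjusted p = 0.000263 and 4.17e-05). RPL41B fell by 0.50 at 1 h (edgeR adjusted p = 0.026), a call lost without replicate 3 of 0 h, replicate 1 of 1 h or replicate 2 of 1 h (adjusted p = 0.071, 0.0889 and 0.069), and with library totals as scaling (adjusted p = 0.103). Summed, the 2 copies had a change of -0.44 at 1 h (adjusted p = 0.0613).

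RPL1A and RPL1B encode the same L1 stalk protein, which helps spent tRNA leave the ribosome, from coding sequences that differ at 4 bases. RPL1A had 516, 562 and 663 CPM at 0 h, 357, 375 and 397 CPM at 1 h, 288, 278 and 275 CPM at 3 h and 199, 207 and 206 CPM at 6 h. RPL1B had 598, 632 and 777 CPM at 0 h, 179, 199 and 214 CPM at 1 h, 202, 216 and 201 CPM at 3 h and 219.9, 233 and 222 CPM at 6 h. RPL1A stepped down at each time, while RPL1B had its lowest mean at 1 h and passed no test at 3 h against 1 h or at 6 h against 3 h. The share of RPL1A was 46.5% ± 0.559 at 0 h, 65.6% ± 0.888 at 1 h, 57.6% ± 1.2 at 3 h and 47.5% ± 0.519 at 6 h (SD, n = 3 each). The ratio of A to B changed by 1.14 ± 0.05, 0.65 ± 0.05 and 0.06 ± 0.05 (edgeR adjusted p = 5.47e-09, 7.61e-07 and 0.322). The split between these copies rests on the few windows that differ.

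RPL4B, whose protein uL4 reaches into the peptide tunnel, had log2 fold changes of -1.89, -1.72 and -1.59 at 1, 3 and 6 h, and RPL4A of -1.41, -1.49 and -1.51. Their ratio changed by 0.47 ± 0.06 at 1 h (edgeR adjusted p = 4.44e-05) and by 0.07 at 6 h (adjusted p = 0.324). Taken as 46 proteins with the copies summed, which no splitting of reads between copies can move, 45 fell at 1 h, 46 at 3 h and 46 at 6 h. The exception at 1 h was RPL41. The 12 genes of the 6 near-identical pairs had a median change of -1.01 at 1 h, and the other 69 genes -0.95.

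After the first hour the members changed less, and in both directions. At 3 h against 1 h, 42 fell, 10 rose and 29 passed no test, with a median of -0.19, where 17.6% of all features fell and 16.9% rose. With library totals as scaling, 29 fell and 18 rose. Under that scaling 552 of all features fell and 1734 rose in this comparison, with a median of 0.13. The lowest were RPL41B (-1.06), RPL9A (-1.0), RPL41A (-0.89) and RPL26B (-0.68). The 10 that rose were RPL22B (0.95), RPL9B (0.93), RPL18B (0.91), RPL31B (0.63), RPL7B (0.58), RPL33B (0.46), RPL15B (0.44), RPL27B (0.41), RPL5 (0.24) and RPL36A (0.15). Of these, 8 are B copies, and RPL15B had not fallen at 1 h. The call of RPL36A (edgeR adjusted p = 0.0421) was lost with DESeq2 (adjusted p = 0.0554), with nuclear open reading frames alone (adjusted p = 0.0559) and without replicate 1 or 3 of 1 h or any 1 replicate of 3 h (adjusted p from 0.0637 to 0.164).

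At 6 h against 3 h, 29 fell, 3 rose and 49 passed no test, with a median of -0.14, where 21.7% of all features fell and 21% rose. The count that fell was 17, 15 and 16 without replicate 1 of 3 h, replicate 2 of 3 h and replicate 1 of 6 h. Over all features 1042, 940 and 976 fell in the same fits, against 1219 with every library. RPL7B (0.72 ± 0.06), RPL8A (0.55 ± 0.07) and RPL9B (0.28 ± 0.07) rose (SE, edgeR adjusted p = 2.89e-06, 5.36e-05 and 0.00427). The largest falls were those of RPL18B (-0.66), RPL1A (-0.46), RPL43B (-0.36) and RPL13A (-0.34).

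Short genes had smaller median changes than long ones at 1 h. The 20 shortest members, of 78 to 333 coding bases, had a median log2 fold change of -0.80 at 1 h, and the 20 longest, of 597 to 1164 bases, -1.17. At 6 h the medians were -1.21 and -1.35. Across the 81 genes, which share the libraries, the rank correlation of fold change and coding length was -0.40 at 1 h, -0.17 at 3 h and -0.21 at 6 h. Single libraries differed from the other 2 of their time along the same axis, with rank correlations from -0.33 to 0.35 over the 12 libraries. By Pearson correlation with log2 coding length, the value at 1 h against 0 h was -0.42. Single libraries ran from -0.51 to 0.58 by that measure, so some exceeded it in size. The part of library differences in the 1 h relation was not tested.

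**Figure D4:**
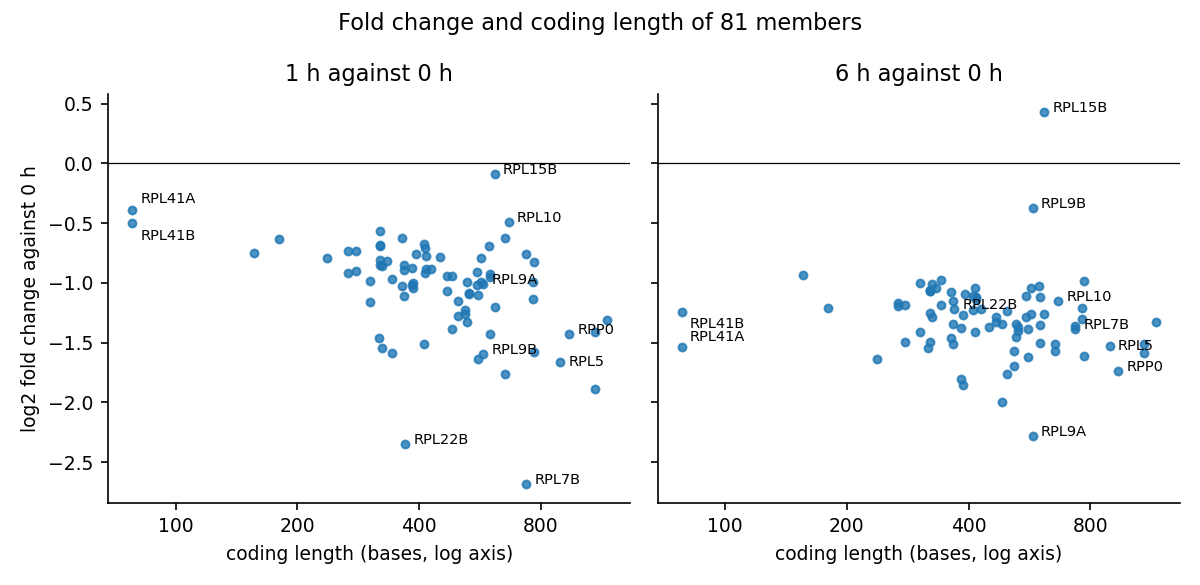
Log2 fold change against 0 h (y axis) and coding length in bases on a log axis (x axis) for the 81 members (points), at 1 h on the left and 6 h on the right. At 1 h the shortest genes, RPL41A and RPL41B, stand near -0.39 and -0.50, and at 6 h the same short genes stand at -1.54 and -1.24.

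Levels per length differed widely between members. At 0 h the highest means were those of RPL41A (7136 ± 1397 CPM per kilobase of coding sequence), RPL32 (7089 ± 566), RPL39 (6352 ± 1179), RPL10 (6210 ± 479.5) and RPL3 (5966 ± 46.0), as mean ± SD of 3 libraries. No neighbours in this order differed beyond their SDs. RPL41A has 78 coding bases and RPL39 156, and which annotation was counted is not given. If bases outside the coding sequence were counted, levels per coding length of such short genes may be too high. The order depends on the length used for genes with a near-identical copy: with unique 50-base windows as the length, RPL41A had 61850, RPL41B 43240 and RPL1B 5817 CPM per kilobase. The lowest were RPL15B (85.6 ± 6.62), RPL7B (243 ± 1.22), RPL22B (302 ± 42.5), RPL4B (306 ± 28.4) and RPL14B (383 ± 62.6). RPL15B stood apart below the rest. By unique windows, RPL7B had 604 and RPL4B 1172 CPM per kilobase. At 6 h RPL15B had 115 ± 1.35 CPM per kilobase of coding sequence, above RPL7B (93.2 ± 1.87) and RPL4B (102 ± 7.17). Levels by unique windows were computed for 0 h only, so this order holds by coding length alone. RPL32, the highest with RPL39, had 3330 ± 90.3 at 6 h.

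In the 500 bases before the start codon, the Rap1 motif ACCCNNACA was found on either strand for 36 of 81 members (44.4%), against 280 of 5680 other genes (4.93%). The Abf1 motif, TCA and ACG with any 6 bases between, was found for 12 members (14.8%) and 23.1% of other genes. The Tbf1 motif AACCCTA was found for 2 members (2.47%) and 4.3%, and the Fhl1 motif GACGC for 32 (39.5%) and 29.9%. Matches of Rap1 and Tbf1, or of Abf1 and Fhl1, can overlap. Of the pairs printed above, RPL7A and RPL9A held 1 Rap1 match each in this longer window and RPL7B, RPL9B, RPL15A and RPL15B none. RPL22B held 1, and RPL22A none. Over all pairs, the A copy alone held a Rap1 match in RPL7, RPL8, RPL9 and RPL14. A match in the B copy alone was found for RPL1, RPL2, RPL6, RPL11, RPL12, RPL19, RPL22, RPL27, RPL40, RPL41, RPL42, RPL43 and RPP1.

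Genes that regulate the ribosomal protein genes had median changes near 0. Of 14 regulators of their transcription, 1 fell and 6 rose at 1 h, and 2 fell and 6 rose at both 3 h and 6 h. Of all features, 23.4% fell and 24.5% rose at 1 h, 24.5% fell and 26.3% rose at 3 h, and 28.9% fell and 33% rose at 6 h. IFH1, the co-activator recruited by Fhl1, rose by 0.79, 1.09 and 1.15 on the log2 scale. CRF1, described as a co-repressor that competes with Ifh1, had 0.38 at 1 h, which passed no test, and rose by 1.05 at 3 h and 2.17 at 6 h. TOD6, a repressor of ribosome biogenesis genes, rose by 0.87, 0.95 and 0.94, and its relative DOT6 fell by 0.80 at 1 h and 0.73 at 3 h. HMO1, an HMG-box protein found at many of these promoters, rose by 0.39 at 1 h and fell by 0.47 at 6 h. Of 16 genes of TORC1 and protein kinase A signalling, none fell and 3 rose at 1 h, 3 fell and none rose at 3 h, and 2 fell and 7 rose at 6 h. The median changes of these lists lay between 0.03 and 0.19, against at most 0.05 over all features.

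Among factors that handle the newly made proteins, falls were most frequent at 6 h, when 28.9% of all features fell, against 23.4% at 1 h and 24.5% at 3 h. Of 41 factors of 60S assembly and export, 18 fell and 1 rose at 1 h, 5 fell and 10 rose at 3 h, where 26.3% of all features rose, and 27 fell and none rose at 6 h, with medians of -0.13, 0.10 and -0.28. At 6 h against 3 h 31 of them fell, against 21.7% of all features. BRX1, an assembly factor, had -0.80 and NIP7 -0.72 at 6 h. Of 8 chaperones and import receptors for single large-subunit proteins, 3 fell at 1 h, 2 fell and 2 rose at 3 h, and 6 fell at 6 h. KAP123, the main import receptor of ribosomal proteins, fell by 0.86 at 6 h, and BCP1, a chaperone of Rpl23, by 0.70. SQT1, the chaperone of Rpl10, had 0.13 and SYO1, which carries Rpl5 and Rpl11, -0.14, neither past the test. Of 7 methyltransferases of large-subunit proteins, 1 fell and 2 rose at 1 h, and 3 fell and 1 rose at 6 h. RKM5, which methylates Rpl1, rose by 1.04, 0.98 and 1.05.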

How the data were processed

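Counts per feature were deposited for 12 libraries, made by the authors from aligned reads, with ribosomal RNA depleted and strand kept per the labels' protocols. Alignment with STAR 2.5.2b, counting with featureCounts 1.5.1 and genome build R64 are taken from the submitters' processing notes. Which annotation was counted, whether by strand, and how reads with several places were treated is not given in the sources used here. The table held 6216 features, and 3 blank lines were left out. Groups came from the labelled hours.

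Tests used edgeR 4.0.16 under R 4.3.3 (quasi-likelihood, robust, all 12 libraries in 1 fit, TMM scaling), after its filter on low counts, which kept 5615 features. Benjamini-Hochberg adjustment ran over all features tested, with a threshold of 0.05. SEs were computed as the size of the log2 change over the root of its F value. CPM are counts scaled to TMM-adjusted totals, and precision rests on the counts stated and the spread of 3 libraries. Pair ratios were tested with the same tool on both copies of each pair, with a term for each library and copy-by-time terms, over 541 of 596 pairs of reciprocal best blastp 2.17.0 matches (minimum 30% identity and 70% coverage) with both copies at 10 or more counts in 3 or more libraries. Fits were tested on simulated data. Coordinates, coding lengths and sequences are from the RefSeq R64 genome. The text names the 8 lowest and 8 highest members of each comparison with 0 h, members not lower, pairs past 2-fold, stalk genes, the 4 lowest and 4 highest between later times, 5 levels at each end and up to 4 genes per list, printing part of these. Other members named, such as RPL8A, RPL16A and RPL30, were chosen after their values were seen. The ratio of 1 pair is not reported here. Members and lists were chosen with earlier results of these data known. Alternatives were the scaling (DESeq2 1.42.0 size factors, library totals, open reading frames only), no filter, DESeq2, limma 3.58.1 for ratios, fewer libraries, summed copies, a stricter count minimum of 50 for pairs, only pairs named with a final A or B, each library left out, and a replicate block.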

Additional observations from a re-analysis of the deposited data

How the results depend on the processing

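Over all alternatives, 3430 gene fold changes kept their direction and side of the threshold, 13 lost a call, 1 gained one and 1 reversed. Of the pair ratios, 548 kept both, 15 lost a call, 3 gained one and 4 reversed. With library totals as scaling, RPL15B at 1 h was at 0.13 (adjusted p = 0.156), and the median over all features moved to 0.21, 0.35 and 0.34 at 1, 3 and 6 h, with members at -0.75, -0.81 and -0.99. Then 78, 80 and 79 members fell, and over all features 602, 498 and 809 fell and 2575, 3576 and 3278 rose. The reversed ratios had passed no test and were near 0: with each library left out, RPL22 at 3 h ranged from -0.11 to 0.013, RPP1A to RPP1B at 1 h from -0.014 to 0.1, and RPL7 at 6 h from -0.017 to 0.10. With copies summed the counts that fell were 45, 46, 46 and 16 in the 3 comparisons with 0 h and the last step, because only 46 sums were counted. Leaving out each library gave 78 to 79, 80 to 80 and 80 to 80 falls at 1, 3 and 6 h, 34 to 44 at 3 h against 1 h and 15 to 25 at 6 h against 3 h. Over all features, 743 to 845 fell at 3 h against 1 h and 930 to 1100 at 6 h against 3 h. Changed pairs were 18 to 25, 19 to 22, 21 to 25, 21 to 23 and 10 to 15. RPL27 gained a changed ratio at 3 h and 6 h without 0 h replicate 3 (adjusted p = 0.00232 and 0.00131), and at 6 h with only pairs whose symbols differ in a final A or B tested (adjusted p = 0.0307). The labels number no replicates, but the columns carry letters. With the letter as a replicate block, 78, 80, 80, 44 and 37 members fell, 24, 21, 24, 24 and 14 ratios changed, and RPL41B at 1 h (adjusted p = 0.0615) and RPL12 at 1 h (adjusted p = 0.0519) lost their calls. In their deviations from the mean of their time, libraries of letter B correlated at -0.10 to 0.07 and those of A and of C at 0.30 to 0.51. In all, 9 of 12 libraries correlated best with their own letter. The 0 h library of letter B correlated at 0.42, 0.31 and 0.42 with those of letter A at 1, 3 and 6 h. The deviations of a time sum to 0 by construction, so the low values of B cannot show that the letters are not pairs. The main fit had no term for the letter and so leaves out this shared structure. At 6 h against 3 h it called 29 falls among the members, against 37 with the block. Over all features it called 1219 falls there, against 1398 with the block. Counts per member were 192 or more in every library.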
